A study of Mus musculus with 20 samples.

Results

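The genes described here encode the first steps of T cell receptor signalling: receptor chains and coreceptors, the kinases and phosphatases that act on them, adaptors, enzymes that make or remove second messengers, links to NFAT and NF-kB, and ubiquitin ligases. They were chosen as a written list of 36 symbols and matched to the array annotation, with no measured value in the rule. Earlier results of these data were known when the list was chosen, so it may not be independent of them. Of the 36 genes, 35 were measured, among 19505 genes with a named probe set. Lck, the kinase bound to CD4, was not analysed here.

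The measurements were made on regulatory T cells (Tregs), CD4+CD25+ cells from C57BL/6 mice, with Clariom S arrays, which give 1 signal per gene. The Rheb experiment held 12 arrays: stimulated Rheb1/2 KO Tregs, stimulated WT Tregs, unstimulated Rheb1/2 KO Tregs and unstimulated WT Tregs, with 3 arrays each. The Rag experiment held 8 arrays, 2 each of RagAB KO Tregs stimulated for 8 h, WT Tregs stimulated for 8 h, unstimulated RagAB KO Tregs and unstimulated WT Tregs. Rheb and the Rag proteins are small G proteins that activate the kinase complex mTORC1 at the lysosome. Neither the stimulus, nor its duration in the Rheb experiment, nor the Cre driver or other means of deletion, nor the animals behind each array were given in the sources used here. The p-values therefore cover the spread among arrays of a group, which may be technical. In 6 Rheb arrays the treatment entry contradicts title and source name, and the groups follow the titles.

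When a peptide on an MHC molecule engages the receptor, Lck and Fyn phosphorylate the CD3 and zeta chains, ZAP-70 docks there and phosphorylates the scaffold LAT, and LAT and SLP-76 gather phospholipase C gamma and Vav. Diacylglycerol then acts through protein kinase C theta and RasGRP1, and calcium acts through NFAT. Csk, PTPN22, the diacylglycerol kinases and the Cbl ubiquitin ligases hold the pathway back. Tregs need receptor signalling for their suppressive function, and many of its components are known to change in abundance after activation.

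Signals are log2 values, so a difference of 1 is a doubling, and a gene was called changed when its limma p-value, adjusted by Benjamini-Hochberg over all 19505 genes, was below 0.05. Array medians were 7.67 to 7.77 (Rheb experiment) and 7.18 to 7.55 (Rag experiment). The number of arrays, 3 or 2 per group, limits the precision. Every array had at least 34 of the 35 genes above its own median, and between 23 and 30 of them were above the 95th percentile of that array's negative controls. That level was passed by 11.25% to 18.19% of all genes. A gene under it on every array of a group is called not above background there. The level was 9.95 to 10.21 on the Rheb arrays and 9.43 to 9.92 on the Rag arrays, well above the array medians. A gene under it may still be expressed, and the label states only its place against this strict level. In the Rheb experiment Pag1, Dgkz, Bcl10, Nfatc2 and Ubash3a were not above background in any group, and in the Rag experiment Pag1, Themis, Dgkz, Bcl10 and Nfatc2 were not. For these genes a change is a difference of signals and no fold is given. Where only the lower group was not above background, the fold is a bound ("at least"), taken from the mean of the higher group to that level. The 2 Rag arrays of lowest 99th percentile were unstimulated RagAB KO array 1 at 11.34 and unstimulated WT array 2 at 11.46, against 12.15 on the highest. Cd3e, Cd4, Ikzf2, Ctla4 and Tnfrsf18 were above the negative controls' 95th percentile on 20 of 20 arrays, while Il2ra, which encodes CD25, was above it on 0 and above the array median on 14; Foxp3 was not analysed here. The deleted genes checked the labels. The signal of Rheb in Rheb1/2 KO cells fell by 0.93 stimulated and 0.88 unstimulated relative to WT cells (adjusted p = 0.0278 and 0.0413). That of Rraga in RagAB KO cells fell by 2.18 and 2.43 (adjusted p = 0.00448 and 0.00266), whereas neither Rhebl1 nor Rragb passed the test. Rheb also differed by -0.75 ± 0.29 SE in unstimulated RagAB KO against WT cells, which did not pass (adjusted p = 0.681), and by -0.04 in stimulated ones.

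More than 1 in 2 of the proximal signalling genes changed with stimulation in the Rheb experiment, most of them downward. In stimulated Rheb1/2 KO Tregs 18 of the 35 genes fell and 4 rose relative to unstimulated Rheb1/2 KO Tregs, where 5.19% of all genes were called lower and 4.55% higher. In stimulated WT Tregs 17 fell and 2 rose relative to unstimulated WT Tregs, against 4.89% of all genes lower and 4.49% higher. The median change over the 35 genes was -0.34 in Rheb1/2 KO cells and -0.35 in WT cells, and the median over all genes was -0.01 in Rheb1/2 KO cells and 0.02 in WT cells. A total of 15 genes were called in both genotypes, all 15 in the same direction, which is 68.2% of the calls in Rheb1/2 KO cells and 78.9% of those in WT cells. Because these are bulk samples, fewer cells of a type and less RNA per cell cannot be told apart.

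**Figure D1:**
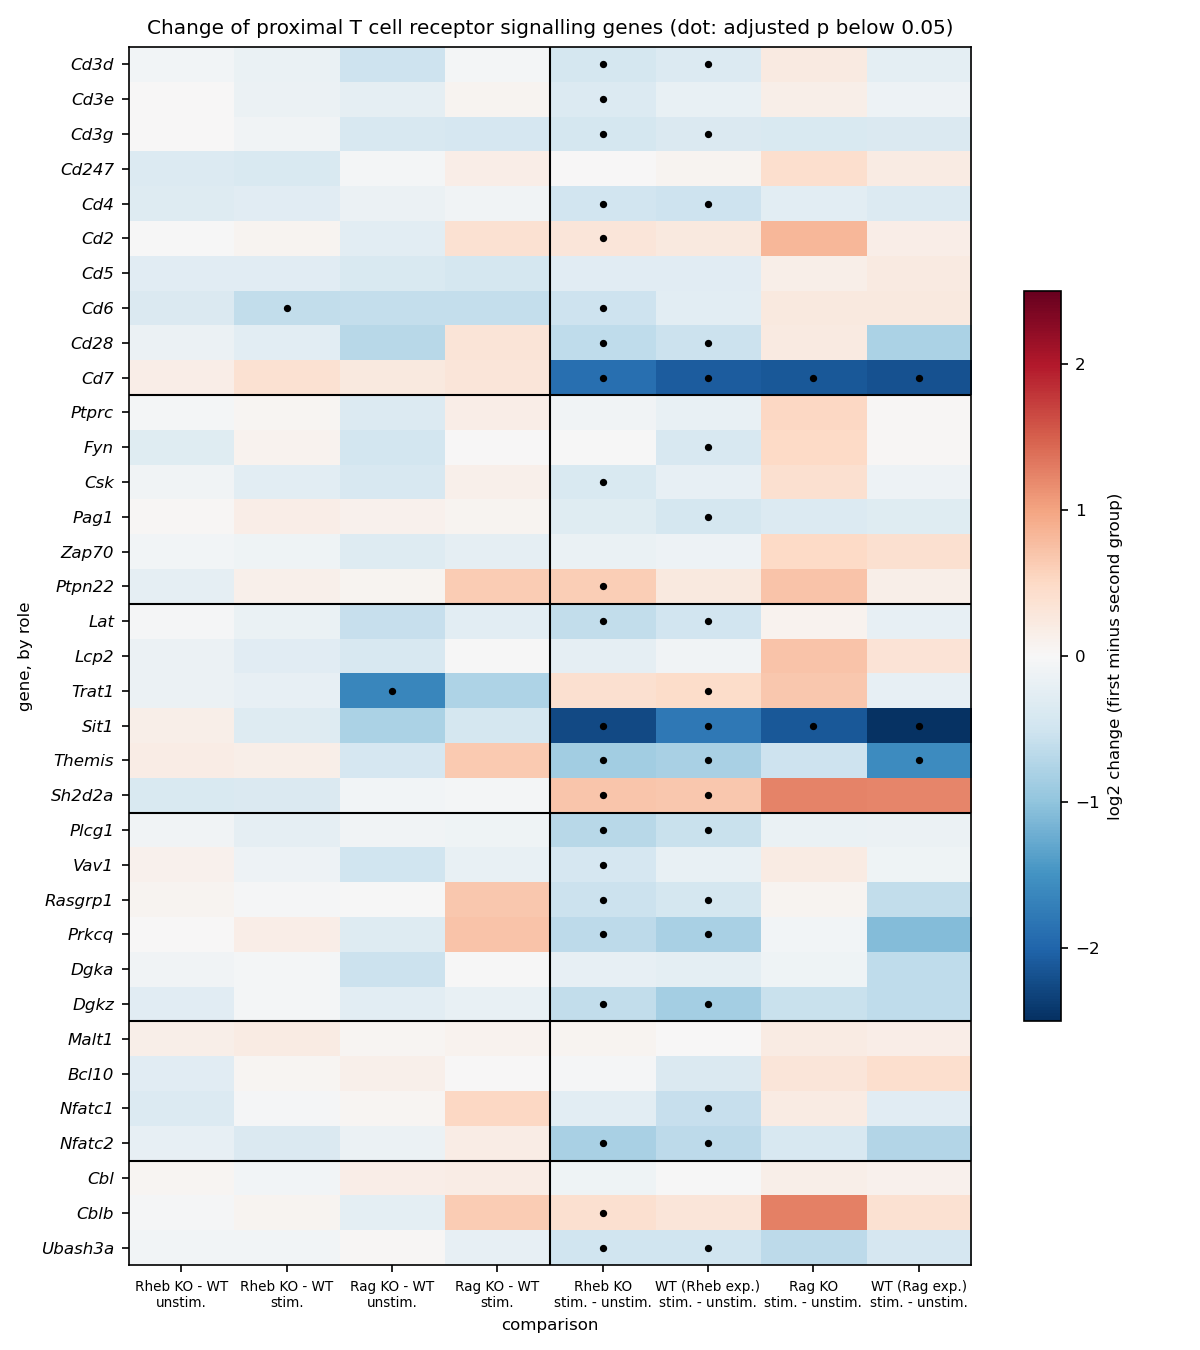
Log2 change of the 35 measured genes (rows, by role) in 8 comparisons (columns), as the first group minus the second; blue is lower, red is higher, and a dot marks an adjusted p below 0.05. The stimulation responses on the right hold most of the dots, with Cd7 and Sit1 the darkest blue in all 4 of them, while the KO effects on the left hold 2.

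Among the receptor chains and surface receptors, 7 of 10 fell and 1 rose in Rheb1/2 KO cells, and 5 of 10 fell in WT cells. The shares of all genes were 5.19% lower and 4.55% higher in Rheb1/2 KO cells, and 4.89% lower in WT cells. Cd7, which encodes an immunoglobulin-superfamily glycoprotein of T and NK cells, had signals of 8.77, 8.90 and 8.73 in stimulated Rheb1/2 KO Tregs, against 10.85, 10.80 and 10.38 in unstimulated ones. In WT Tregs Cd7 had 8.26, 8.56 and 8.44 when stimulated, against 10.59, 10.45 and 10.48 when unstimulated. All 6 stimulated arrays lay below all 6 unstimulated ones. Cd7 was not above background in either stimulated group. It was at least 1.46-fold lower in stimulated Rheb1/2 KO cells (signal difference -1.88 ± 0.13 SE on the log2 scale, adjusted p = 2.16e-06) and at least 1.43-fold lower in stimulated WT cells (-2.09 ± 0.13, adjusted p = 1.70e-06). Cd28, the costimulatory receptor for CD80 and CD86, had 9.90, 9.75 and 9.87 in stimulated Rheb1/2 KO Tregs against 10.42, 10.48 and 10.54 in unstimulated ones, and 10.10, 10.11 and 10.11 in stimulated WT Tregs against 10.65, 10.60 and 10.65 in unstimulated ones. Its groups did not overlap in either genotype, stimulated Rheb1/2 KO arrays were not above background, and the signal difference was -0.64 ± 0.08 in Rheb1/2 KO cells (adjusted p = 0.000270) and -0.53 ± 0.08 in WT cells (adjusted p = 0.00125).

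The coreceptor gene Cd4 fell by 0.47 in Rheb1/2 KO cells and by 0.52 in WT cells (adjusted p = 0.0152 and 0.00973). The signalling chains of the receptor complex fell by less: Cd3d by 0.45 and 0.35, and Cd3g by 0.45 and 0.36, in Rheb1/2 KO and in WT cells (adjusted p between 0.00363 and 0.0178). Cd3e fell by 0.34 in Rheb1/2 KO cells (adjusted p = 0.0174), while its change in WT cells was -0.19 (adjusted p = 0.209). Cd247, the zeta chain, differed by 0.01 in Rheb1/2 KO cells and 0.06 in WT cells (adjusted p = 0.964 and 0.747), with 95% intervals of -0.16 to 0.19 and -0.11 to 0.24, so the chains of the complex did not share 1 size of change. Cd2, an adhesion receptor, rose by 0.31 in Rheb1/2 KO cells (adjusted p = 0.0428), and in WT cells it differed by 0.23 (adjusted p = 0.127). Cd6, a surface receptor for ALCAM, fell by 0.52 in Rheb1/2 KO cells (adjusted p = 0.00521), and in WT cells its change was -0.27 (adjusted p = 0.144). Cd5, an inhibitory receptor, did not pass the test in either genotype, with changes of -0.28 and -0.29.

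Of 6 kinases, phosphatases and anchors 2 were called in each genotype, and no gene was called in both. Of all genes, 5.19% were called lower and 4.55% higher in Rheb1/2 KO cells, and 4.89% and 4.49% in WT cells. Ptpn22, a phosphatase that dampens the kinases, had 11.82, 11.75 and 11.80 in stimulated Rheb1/2 KO Tregs, against 11.12, 11.22 and 11.20 in unstimulated ones. Its signals in WT Tregs were 11.68, 11.60 and 11.68 when stimulated, against 11.44, 11.43 and 11.35 when unstimulated. Stimulated arrays were higher in both genotypes, and the difference passed the test in Rheb1/2 KO cells (0.61 ± 0.08, adjusted p = 0.000351) and not in WT cells (0.25 ± 0.08, adjusted p = 0.0845). Fyn, a Src-family kinase, had 10.80, 10.83 and 10.76 in stimulated Rheb1/2 KO Tregs, against 10.83, 10.79 and 10.80 in unstimulated ones, which overlapped. In WT Tregs it had 10.72, 10.72 and 10.71 when stimulated, against 11.13, 11.09 and 11.13 when unstimulated, a fall of 0.40 (SE 0.08, adjusted p = 0.00564). Csk, which inhibits Lck and Fyn, fell by 0.38 in Rheb1/2 KO cells (adjusted p = 0.0216), and Pag1, the membrane anchor of Csk, fell by 0.45 in WT cells (adjusted p = 0.0380). Zap70, the kinase that docks on the phosphorylated chains, and Ptprc, the phosphatase CD45, did not pass in either genotype, with changes between -0.19 and -0.09.

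Adaptor genes moved in both directions. Sit1, a transmembrane adaptor that binds the phosphatase SHP2, had 8.38, 8.42 and 8.17 in stimulated Rheb1/2 KO Tregs, against 10.48, 10.50 and 10.76 in unstimulated ones. In WT Tregs Sit1 had 8.54, 9.05 and 8.37 when stimulated, against 10.28, 10.40 and 10.64 when unstimulated. No stimulated array reached an unstimulated one or rose above background. Sit1 was at least 1.37-fold lower in stimulated Rheb1/2 KO cells (signal difference -2.25 ± 0.16, adjusted p = 3.74e-06) and at least 1.36-fold lower in stimulated WT cells (-1.78 ± 0.16, adjusted p = 2.32e-05). Themis, an adaptor known for its part in thymocyte selection, had 9.18, 9.46 and 9.88 in stimulated Rheb1/2 KO Tregs against 10.41, 10.39 and 10.31 in unstimulated ones, and 9.20, 9.37 and 9.52 in stimulated WT Tregs against 10.12, 9.94 and 10.48 in unstimulated ones. It fell by 0.86 in Rheb1/2 KO cells and by 0.81 in WT cells (adjusted p = 0.00499 and 0.00827), without overlap in either genotype, and neither stimulated group was above background. The scaffold gene Lat fell by 0.61 in Rheb1/2 KO cells and by 0.47 in WT cells (adjusted p = 0.000434 and 0.00295).

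Sh2d2a, which encodes the Lck-binding adaptor TSAd, moved the other way. It had 11.47, 11.40 and 11.32 in stimulated Rheb1/2 KO Tregs, against 10.77, 10.63 and 10.70 in unstimulated ones. WT Tregs had 11.85, 11.64 and 11.77 when stimulated, against 11.05, 11.14 and 11.07 when unstimulated. Stimulated arrays were above unstimulated ones in each genotype, with a rise of 0.70 ± 0.09 in Rheb1/2 KO cells and 0.67 ± 0.09 in WT cells (adjusted p = 0.000286 and 0.000435). Trat1, a transmembrane adaptor that associates with the zeta chain, rose by 0.46 in WT cells (adjusted p = 0.0297), and in Rheb1/2 KO cells it differed by 0.40 (adjusted p = 0.0593). Lcp2, which encodes SLP-76, did not pass the test in either genotype, at -0.23 in Rheb1/2 KO cells and -0.09 in WT cells.

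Promoters of 3 genes are shown because their patterns differ. Sit1 was called lower in every response, and Prkcq in both responses of the Rheb experiment. Prkcq also lay lower in stimulated WT cells of the Rag experiment, with a change of -1.09 that did not pass the test. Trat1 was the adaptor called between unstimulated RagAB KO and WT Tregs. Each is the RefSeq window of 300 bases around the gene's start, most of it upstream, on build GRCm38.p6, printed 5′ to 3′ on the gene's strand. Capitals mark the letters searched on both strands: TGANTCA for AP-1, GGAAA for the NFAT core and GTAAACA for FOXO.
Sit1, chr4:43483660-43483959, minus strand: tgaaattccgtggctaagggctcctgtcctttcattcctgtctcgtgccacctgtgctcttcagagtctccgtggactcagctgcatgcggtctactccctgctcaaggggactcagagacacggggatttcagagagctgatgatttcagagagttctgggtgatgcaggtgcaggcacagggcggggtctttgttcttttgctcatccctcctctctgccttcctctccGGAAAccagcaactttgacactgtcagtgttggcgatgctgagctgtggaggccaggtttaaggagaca
Prkcq, chr2:11172132-11172431, plus strand: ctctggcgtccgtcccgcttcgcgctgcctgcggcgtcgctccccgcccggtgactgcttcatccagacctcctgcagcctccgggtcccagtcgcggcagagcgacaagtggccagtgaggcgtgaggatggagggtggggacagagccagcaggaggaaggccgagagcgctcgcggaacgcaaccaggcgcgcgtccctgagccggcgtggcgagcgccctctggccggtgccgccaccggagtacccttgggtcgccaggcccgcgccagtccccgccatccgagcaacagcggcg
Trat1, chr16:48772013-48772312, minus strand: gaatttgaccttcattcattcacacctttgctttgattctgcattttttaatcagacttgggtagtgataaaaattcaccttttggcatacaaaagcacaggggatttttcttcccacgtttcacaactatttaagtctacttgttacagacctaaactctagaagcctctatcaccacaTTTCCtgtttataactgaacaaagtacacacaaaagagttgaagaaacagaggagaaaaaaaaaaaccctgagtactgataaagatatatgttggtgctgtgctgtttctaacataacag
Sit1 held 1 NFAT core match, at position 232 of the window, Trat1 held 1 on the opposite strand at position 181, and Prkcq held none of the 3 motifs. Bases G and C made up 54.7% of the Sit1 window, 73.0% of the Prkcq window and 35.3% of the Trat1 window, against a median of 52.7% over all windows. The table held 39 promoters of 27 member genes: 27 of the 39 (69.2%) had the NFAT core letters, against 61.3% of 32851 promoters. AP-1 letters were in 0 of the 39 against 7.8%, and FOXO letters in 1 of the 39 (2.6%) against 3.6%. A match is a description of letters only.

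Of 6 enzymes and exchange factors that handle second messengers, 5 were called lower in Rheb1/2 KO cells and 4 in WT cells. The shares of all genes called lower were 5.19% and 4.89%. Prkcq, protein kinase C theta, had 11.68, 11.59 and 11.66 in stimulated Rheb1/2 KO Tregs against 12.29, 12.34 and 12.30 in unstimulated ones, and 11.48, 11.51 and 11.48 in stimulated WT Tregs against 12.28, 12.31 and 12.32 in unstimulated ones. Its groups were far apart for their spread, with a change of -0.66 ± 0.08 in Rheb1/2 KO cells (adjusted p = 0.000139) and -0.82 ± 0.08 in WT cells (adjusted p = 3.55e-05). Dgkz, a kinase that removes diacylglycerol, had 8.71, 8.39 and 8.38 in stimulated Rheb1/2 KO Tregs against 9.20, 8.99 and 9.14 in unstimulated ones, and 8.63, 8.54 and 8.43 in stimulated WT Tregs against 9.37, 9.38 and 9.42 in unstimulated ones. Its signal fell by 0.61 and 0.86 in Rheb1/2 KO and in WT cells (adjusted p = 0.00246 and 0.000264), with no array above background in either state. Plcg1, phospholipase C gamma, fell by 0.70 in Rheb1/2 KO cells and 0.57 in WT cells (adjusted p = 0.00149 and 0.00681), and its stimulated groups were not above background. Rasgrp1, a Ras exchange factor driven by diacylglycerol, fell by 0.54 and 0.44 in Rheb1/2 KO and in WT cells (adjusted p = 0.00283 and 0.0119). The exchange factor Vav1 fell by 0.42 in Rheb1/2 KO cells (adjusted p = 0.00806) and differed by -0.18 in WT cells (adjusted p = 0.268), and Dgka, a second diacylglycerol kinase gene, did not pass in either, at -0.21 and -0.24.

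Links to NFAT and NF-kB were mixed. Nfatc2, a calcium-regulated transcription factor, had 8.42, 8.46 and 7.98 in stimulated Rheb1/2 KO Tregs against 8.99, 9.18 and 9.14 in unstimulated ones, and 8.83, 8.83 and 8.27 in stimulated WT Tregs against 9.30, 9.31 and 9.28 in unstimulated ones. Its signal fell by 0.81 and 0.65 in Rheb1/2 KO and in WT cells (adjusted p = 0.00442 and 0.0183), all of it under the background level. Nfatc1, its relative, fell by 0.57 in WT cells (adjusted p = 0.0295) and differed by -0.26 in Rheb1/2 KO cells (adjusted p = 0.378). Malt1 and Bcl10, partners in the complex that activates NF-kB, did not pass in either genotype, with changes between -0.37 and 0.06. Of the ubiquitin ligase group, Ubash3a, which binds Cbl proteins and dampens receptor signalling, fell by 0.49 in Rheb1/2 KO cells and 0.51 in WT cells (adjusted p = 0.0320 and 0.0295). Cblb, a ligase that restrains T cell activation, rose by 0.41 in Rheb1/2 KO cells (adjusted p = 0.0116) and differed by 0.31 in WT cells (adjusted p = 0.0520), while Cbl did not pass in either, at -0.11 and -0.01.

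Of the 22 calls in Rheb1/2 KO cells 3 were of genes not above background in either state, and of the 19 in WT cells 4 were. Of the 22 calls in Rheb1/2 KO cells 16 were made without each array in turn, and of the 19 in WT cells 12 were, among them Cd7, Sit1, Themis, Prkcq, Dgkz, Plcg1, Rasgrp1, Cd28, Lat and Sh2d2a in both genotypes. Fitting all 20 arrays together lowered the counts to 10 in Rheb1/2 KO cells and 7 in WT cells.

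Other levels moved with stimulation in the Rheb experiment. Beside the counts below, 5.19% of all genes were called lower and 4.55% higher in Rheb1/2 KO cells, and 4.89% and 4.49% in WT cells. Among 10 measured macrophage markers 7 fell in each genotype, and their mean signal lay between 6.73 and 6.77 in stimulated Rheb1/2 KO Tregs against 7.75 to 7.86 in unstimulated ones, and between 6.69 and 6.93 in stimulated WT Tregs against 7.32 to 7.40 in unstimulated ones. All 10 were below the negative controls' 95th percentile on every array of these groups. Of 11 dendritic cell markers 4 fell in each genotype, of 9 NK cell markers 2 fell in Rheb1/2 KO cells and 3 in WT cells, and of 7 B cell markers 1 fell in Rheb1/2 KO cells and 0 in WT cells. Among 19 genes that cell dissociation induces, 15 fell in Rheb1/2 KO cells and 14 in WT cells, with mean signals of 9.45 to 9.54 in stimulated Rheb1/2 KO Tregs against 10.33 to 10.53 in unstimulated ones, and of 9.45 to 9.49 in stimulated WT Tregs against 10.44 to 10.48 in unstimulated ones. Of 5 Treg markers 4 rose in Rheb1/2 KO cells and 2 in WT cells, and neither of 2 CD8 T cell markers passed the test. All 4 T cell markers fell in Rheb1/2 KO cells and 3 of 4 in WT cells, a list that holds the members Cd3e and Cd4. The part of these levels in the changes of the signalling genes was not tested.

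**Figure D2:**
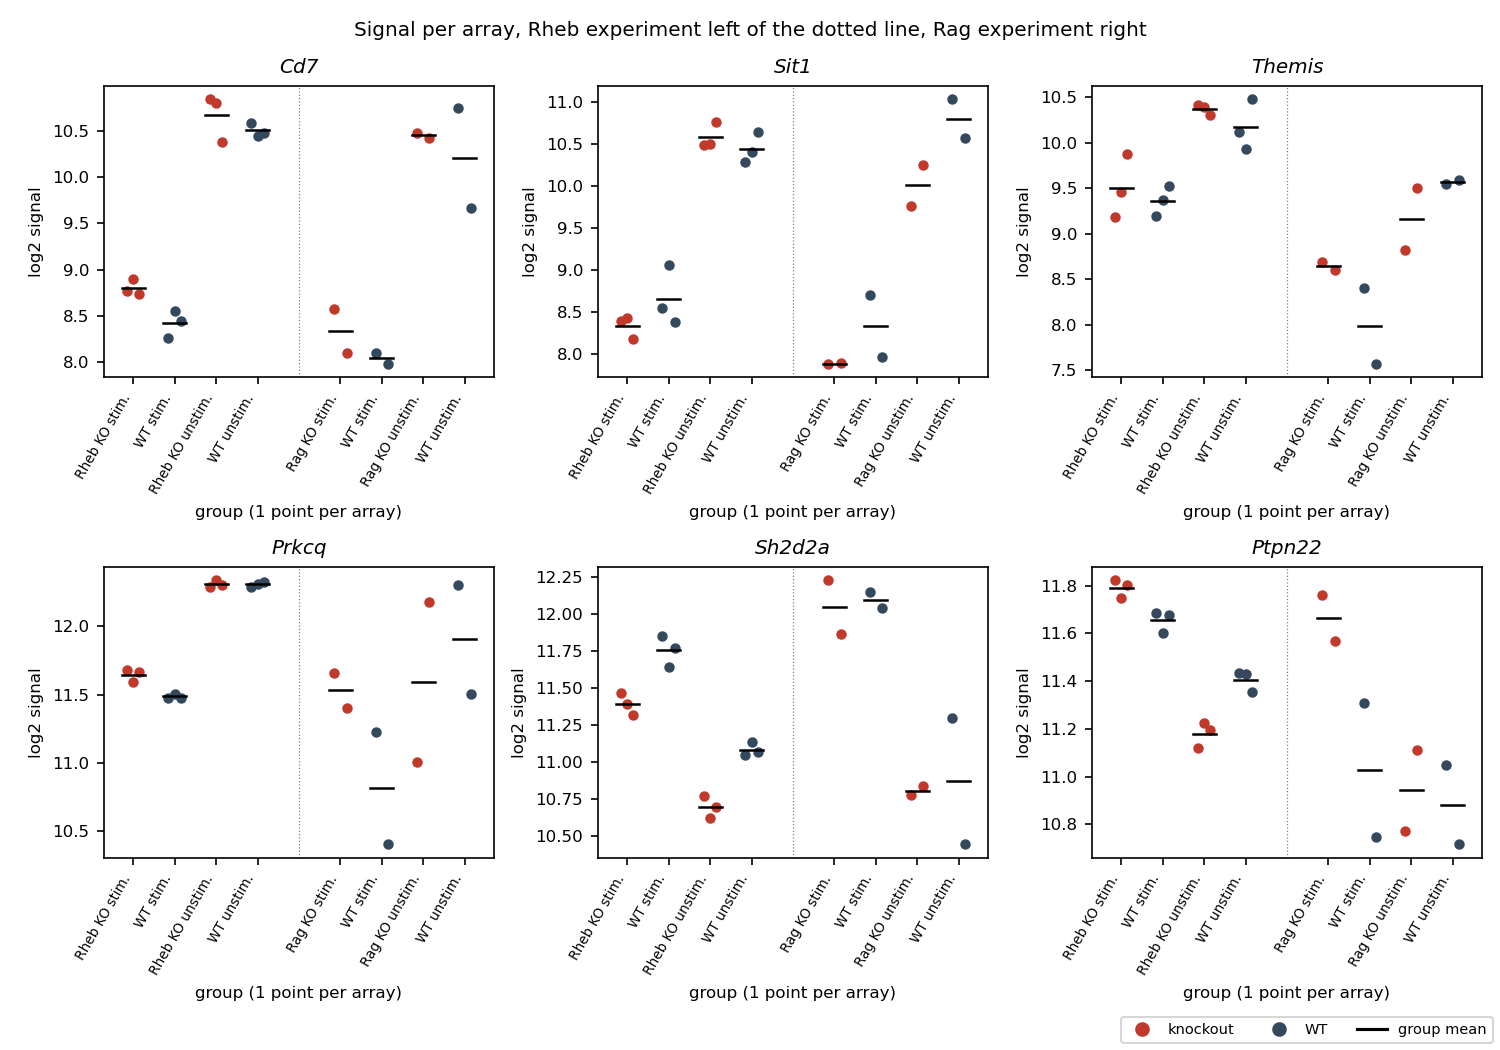
Log2 signal (vertical axis) of 6 genes on each array (points) by group, with the group mean as a line; red is knockout and dark grey WT. Cd7 and Sit1 lie between 7.88 and 9.05 on stimulated arrays and between 9.67 and 11.03 on unstimulated ones, Sh2d2a is higher when stimulated, and Prkcq arrays overlap between states only in RagAB KO Tregs.

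Stimulation for 8 h in the Rag experiment, with 2 arrays per group, gave fewer calls, again with Cd7 and Sit1 as the genes of largest fall. In 1 fit of all 20 arrays there were 9 calls in the RagAB KO and 9 in the WT response. The same fit gave 10 in the Rheb1/2 KO response and 7 in the WT response beside it. The counts therefore do not compare the strength of the responses between the experiments. In stimulated RagAB KO Tregs 2 of the 35 genes fell relative to unstimulated RagAB KO Tregs and 0 rose, where 0.123% of all genes were called lower and 1.2% higher. Stimulated WT Tregs had 3 genes lower and 0 higher than unstimulated WT Tregs, against 0.523% of all genes lower and 0.477% higher. Sit1 had 7.88 and 7.88 in stimulated RagAB KO Tregs against 9.76 and 10.24 in unstimulated ones, and 8.70 and 7.96 in stimulated WT Tregs against 11.03 and 10.57 in unstimulated ones. Its groups did not overlap, and neither stimulated group was above background. It was at least 1.14-fold lower in stimulated RagAB KO cells and at least 2.42-fold lower in stimulated WT cells, with signal differences of -2.12 and -2.47 (SE 0.29 each, adjusted p = 0.00350 and 0.00230). Cd7 had 8.57 and 8.10 in stimulated RagAB KO Tregs against 10.48 and 10.43 in unstimulated ones, and 8.09 and 7.98 in stimulated WT Tregs against 10.76 and 9.67 in unstimulated ones. No overlap was seen there either, and again neither stimulated group was above background, nor was 1 of the 2 unstimulated WT arrays. The signal differences were -2.12 and -2.18 in RagAB KO and in WT cells (SE 0.32 each, adjusted p = 0.00560 and 0.00767).

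Themis had 8.40 and 7.57 in stimulated WT Tregs of the Rag experiment, against 9.54 and 9.60 in unstimulated ones, a fall of the signal of 1.58 ± 0.30 (adjusted p = 0.0243), all of it under the background level. In RagAB KO cells it had 8.68 and 8.60 when stimulated, against 8.82 and 9.50 when unstimulated, and the change of -0.52 did not pass the test. Sh2d2a had 12.23 and 11.87 in stimulated RagAB KO Tregs against 10.78 and 10.84 in unstimulated ones, and 12.15 and 12.05 in stimulated WT Tregs against 11.30 and 10.44 in unstimulated ones. Stimulated arrays were higher without overlap, but the differences of 1.24 and 1.23 did not pass the adjusted test (adjusted p = 0.0535 and 0.0650). Cblb was the largest positive difference in RagAB KO cells, at 12.84 and 12.41 stimulated against 10.98 and 11.75 unstimulated, with a change of 1.26 ± 0.36 and an adjusted p of 0.105. The remaining members lay between -0.66 and 0.83 in RagAB KO cells and, without Cd7, Sit1, Themis and Sh2d2a, between -1.09 and 0.43 in WT cells.

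The direction of the whole set in the Rag experiment depended on the scale and on single arrays. On the deposited scale the median change of the 35 genes was 0.20 in RagAB KO cells and -0.15 in WT cells, against medians over all genes of 0.09 and 0.21. The median in RagAB KO cells was -0.12 without unstimulated array 1 and 0.44 without unstimulated array 2. In WT cells it was 0.18 without unstimulated array 1, -0.49 without unstimulated array 2, -0.23 without stimulated array 1 and -0.04 without stimulated array 2. After quantile normalization of the deposited values once more, the medians of the 35 genes were -0.29 in RagAB KO cells and -0.36 in WT cells, against -0.03 and 0.04 over all genes, and 14 genes changed sign in RagAB KO cells and 6 in WT cells. The genes called lower were then 4 in RagAB KO cells and 6 in WT cells, with 0 called higher in RagAB KO cells and 1, Sh2d2a, in WT cells. All called genes split into 24 lower and 234 higher in RagAB KO cells on the deposited scale, against 167 lower and 215 higher after renormalization, and into 102 lower and 93 higher in WT cells on the deposited scale, against 430 lower and 208 higher after it. Sit1, Cd7 and Themis kept the signs given above under both scales. The Cd7 call ended in RagAB KO cells without stimulated array 2 (adjusted p = 0.0978) and in WT cells without stimulated array 1 or 2 (adjusted p up to 0.105), and the Themis call in WT cells ended without any of 3 arrays, whereas Sit1 was called without each array.

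The stimulation responses were correlated across these genes between the 2 experiments, which share no array. Across the 35 genes the WT response had a Pearson correlation of 0.88 between the Rheb and the Rag experiment, and 0.75 over the 33 genes left without Cd7 and Sit1, against 0.49 over all 19505 genes. The sign was the same for 26 of the 35 genes (74.3%), against 62.7% of all genes. The KO responses correlated at 0.91 across the 35 genes, against 0.53 over all genes, but the sign was the same for 19 of the 35 (54.3%), against 59.8% of all genes. Rheb1/2 KO and WT responses correlated at 0.95, with the same sign for 35 of 35 genes, against 65.8% of all genes, and RagAB KO and WT responses at 0.88, with the same sign for 26 of 35 (74.3%), against 57.2% of all genes. Signs in the Rag experiment were taken on the deposited scale. After renormalization 14 genes changed sign in RagAB KO cells and 6 in WT cells, and the agreement of signs was not counted again. These are correlations across genes that share the same arrays, so they describe these arrays and carry no p-value. The 35 genes were brighter than most, with at least 34 of them above the median of every array. No comparison with genes of like signal was made. Values and shares over all genes, here and elsewhere, are therefore not matched for signal.

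**Figure D3:**
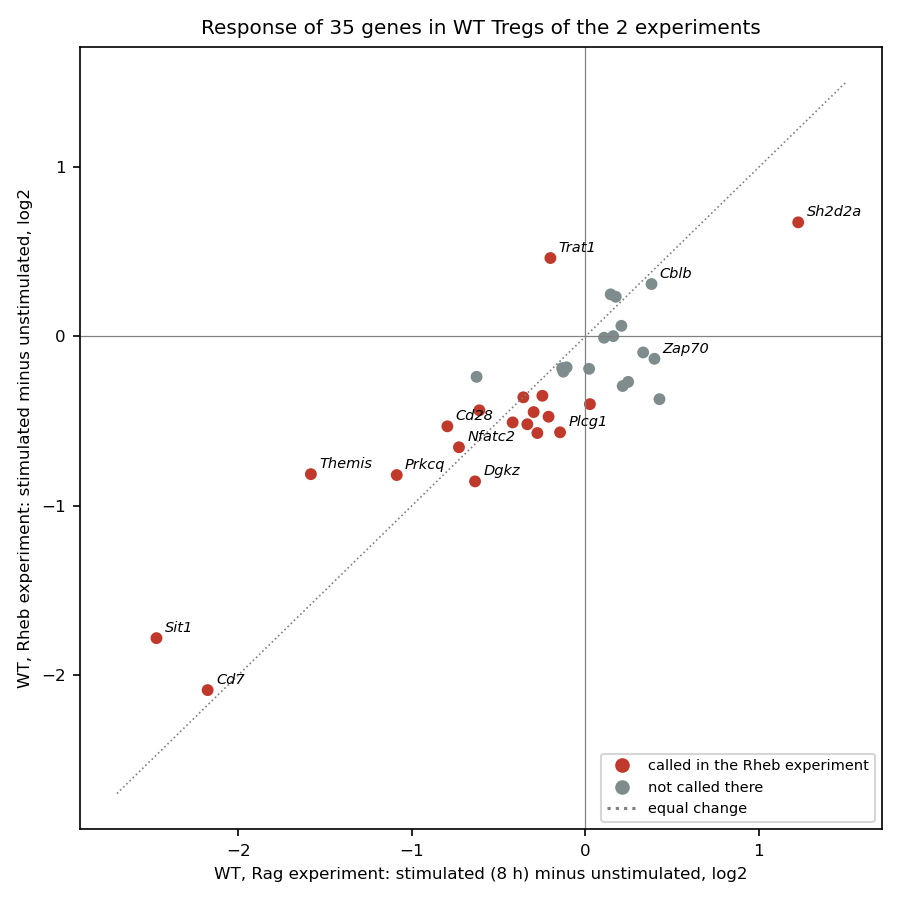
Stimulated minus unstimulated log2 change of the 35 genes in WT Tregs of the Rag experiment (horizontal axis) and of the Rheb experiment (vertical axis); red points were called in the Rheb experiment and the dotted line marks equal change. Sit1, Cd7, Themis and Prkcq are low and Sh2d2a is high in both, and Trat1 lies on opposite sides of 0.

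Deletion of Rheb1/2 changed few of these genes. In unstimulated Tregs 0 of the 35 genes passed the test by limma, against 0.282% of all genes called lower and 0.226% called higher, and 9 had an unadjusted p under 0.05, all 9 lower in Rheb1/2 KO cells. Of all genes, 10.2% had an unadjusted p under 0.05 there. The median difference was -0.08, against 0.02 over all genes. Sh2d2a differed most, at 10.77, 10.63 and 10.70 in unstimulated Rheb1/2 KO Tregs against 11.05, 11.14 and 11.07 in unstimulated WT Tregs, which did not overlap (-0.39 ± 0.09, adjusted p = 0.106). Cd6 and Cd247 followed at -0.35 and -0.34 (adjusted p = 0.209 and 0.106). The other 6 with an unadjusted p under 0.05 were Nfatc1, Cd4, Fyn, Cd5, Dgkz and Ptpn22, at -0.33 to -0.23, a list read off after the values were seen.

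In stimulated Tregs 1 gene was called, and it was lower, against 0.338% of all genes called lower and 0.205% called higher. Cd6 had 11.09, 11.10 and 10.73 in stimulated Rheb1/2 KO Tregs, against 11.57, 11.60 and 11.57 in stimulated WT Tregs. The groups did not overlap, and Cd6 was 1.52-fold lower in Rheb1/2 KO cells (-0.61 ± 0.10, adjusted p = 0.0219). Cd247 had 10.88, 10.82 and 10.84 in stimulated Rheb1/2 KO Tregs, against 11.20, 11.24 and 11.26 in stimulated WT Tregs, again without overlap. Its difference of -0.39 ± 0.08 narrowly missed the threshold (adjusted p = 0.0578), as large as its difference of -0.34 in unstimulated cells. The third largest was Cd7, at 8.77, 8.90 and 8.73 in stimulated Rheb1/2 KO Tregs against 8.26, 8.56 and 8.44 in stimulated WT Tregs, a difference of 0.38 (adjusted p = 0.325). The Cd6 call ended without any 1 of the 6 stimulated arrays, with differences between -0.67 and -0.49, and it also ended when only the 2 groups were fitted (adjusted p = 0.105).

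Markers of other cells differed between the unstimulated groups as well. All 10 macrophage markers were higher in unstimulated Rheb1/2 KO than in unstimulated WT Tregs, with a median of 0.41 and 2 called (C1qa and Ms4a7), and mean signals of 7.75 to 7.86 against 7.32 to 7.40. Of 11 dendritic cell markers 2 were called higher, H2-Eb1 and H2-Ab1, with mean signals of 7.77 to 7.90 against 7.45 to 7.63 and all 11 below the negative controls' 95th percentile on every unstimulated WT array, and of 9 NK cell markers 1 was, Fcgr3. Between the unstimulated groups 0.226% of all genes were called higher and 0.282% lower. In stimulated Tregs 0 of 10 macrophage markers and 1 of 11 dendritic cell markers were called, against 0.205% of all genes higher and 0.338% lower. Their part in the lower values of the signalling genes was not tested.

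**Figure D4:**
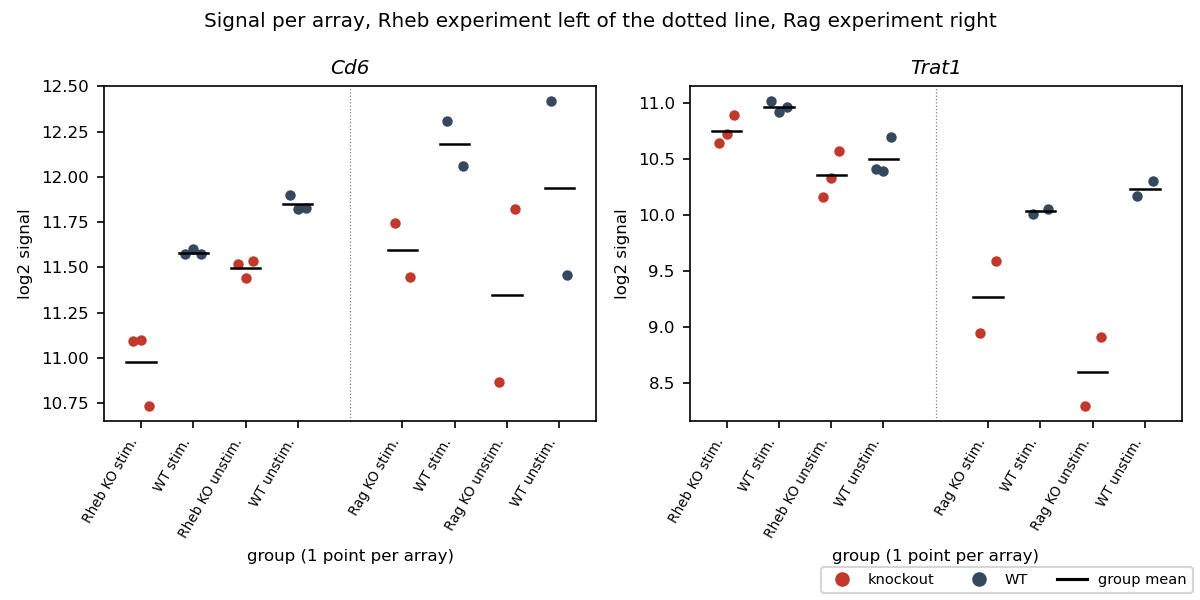
Log2 signal (vertical axis) of Cd6 and Trat1 on each array (points) by group, with the group mean as a line; red is knockout and dark grey WT. Stimulated Rheb1/2 KO arrays are below stimulated WT arrays for Cd6, and both RagAB KO groups are below their WT groups for Trat1.

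Deletion of RagAB changed 1 of these genes in unstimulated Tregs, lower, against 0.0615% of all genes called lower and 0.0513% called higher. Trat1 had 8.30 and 8.91 in unstimulated RagAB KO Tregs, against 10.17 and 10.30 in unstimulated WT Tregs. The groups did not overlap, and both RagAB KO arrays were not above background. Trat1 was at least 1.42-fold lower in RagAB KO cells (signal difference -1.63 ± 0.28, adjusted p = 0.0470). In stimulated Tregs it had 8.95 and 9.59 in RagAB KO cells, against 10.01 and 10.06 in WT cells, a difference of -0.77 ± 0.28 that did not pass the adjusted test (adjusted p = 0.765). In Rheb1/2 KO Tregs Trat1 differed from WT by -0.21 stimulated and -0.15 unstimulated, and neither passed. The call in unstimulated RagAB KO cells rests on few arrays: it ended without any of 7 of the 8 arrays, with differences between -1.94 and -1.33, and without the 2 arrays of lowest signal it was -1.26 (adjusted p = 0.239).

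Sit1 and Cd28 were the next largest in unstimulated RagAB KO Tregs, at -0.79 and -0.70, and neither passed the test (adjusted p = 0.665 and 0.757). In all 27 of the 35 genes lay below 0 there, with a median of -0.27 against 0.03 over all genes; after renormalization 22 lay below 0 and the median was -0.12. Single arrays moved this median: it was 0.08 without unstimulated WT array 1, -0.58 without unstimulated WT array 2, -0.03 without unstimulated RagAB KO array 1 and -0.54 without unstimulated RagAB KO array 2. Stimulated RagAB KO Tregs had 0 genes called by limma, against 0.0103% of all genes lower and 0.0923% higher, and 4 (of all genes, 5.07%) with an unadjusted p under 0.05. Prkcq and Rasgrp1 differed most after Trat1, at 0.72 and 0.67, and neither passed. Prkcq had 11.66 and 11.40 in stimulated RagAB KO Tregs against 11.22 and 10.40 in stimulated WT Tregs, so the 2 WT arrays lay further apart than the groups' means. No marker of another cell type was called in the KO comparisons of the Rag experiment, though 9 of 10 macrophage, 10 of 11 dendritic cell and 8 of 9 NK cell markers lay above 0 in unstimulated RagAB KO against WT Tregs, with medians of 0.24, 0.41 and 0.61. All 10 macrophage and all 9 NK cell markers were below the negative controls' 95th percentile on every array of both groups. So were 10 of the 11 dendritic cell markers in RagAB KO cells and all 11 in WT cells. Their part in the values of the signalling genes was not tested.

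On the deposited scale the KO effects of the 2 experiments were correlated over these genes in stimulated cells and not in unstimulated cells. Across the 35 genes Rheb1/2 KO minus WT and RagAB KO minus WT correlated at 0.54 in stimulated cells and at 0.004 in unstimulated cells, against 0.16 and 0.28 over all genes. The sign was the same for 27 of the 35 (77.1%) in stimulated cells and 24 (68.6%) in unstimulated cells, against 53% and 60.1% of all genes. After renormalization of the Rag arrays 3 genes changed sign in stimulated and 5 in unstimulated RagAB KO against WT cells. The correlations were not computed again after renormalization or without single arrays. How far the contrast between states depends on these was not tested. Cd6 lay below 0 in all 4 comparisons, at -0.61 stimulated and -0.35 unstimulated in Rheb1/2 KO cells and at -0.59 in either state in RagAB KO cells, and passed the test in 1 of them. Other members, among them Lat, Cd5 and Trat1, also lay below 0 in all 4, so this was not particular to Cd6.

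Whether deletion altered the response itself was tested as the response of KO cells minus that of WT cells. In the Rheb experiment 0% of all genes and 0 of the 35 genes passed by limma, 2 of the 35 had an unadjusted p under 0.05 against 6.19% of all genes, and the median was -0.03. Sit1 differed most, at -0.47, followed by Fyn at 0.39 and Ptpn22 at 0.36, with adjusted p between 0.666 and 0.832. Over the 35 genes the 95% intervals ran no lower than -0.97, for Sit1, and no higher than 0.77, for Nfatc1, and these data do not separate differences within a gene's interval from 0. In the Rag experiment 0% of all genes and 0 of the 35 genes passed, and 3 had an unadjusted p under 0.05 against 6.16% of all genes. Themis, Prkcq and Cd28 differed most, at 1.07, 1.03 and 1.02, each with an adjusted p of 0.728. There 29 of 35 genes lay above 0, and after renormalization 9 genes changed sign and 15 lay below 0. Intervals in the Rag experiment were wider, from -1.07 for Cd6 to 2.21 for Prkcq.

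**Figure D5:**
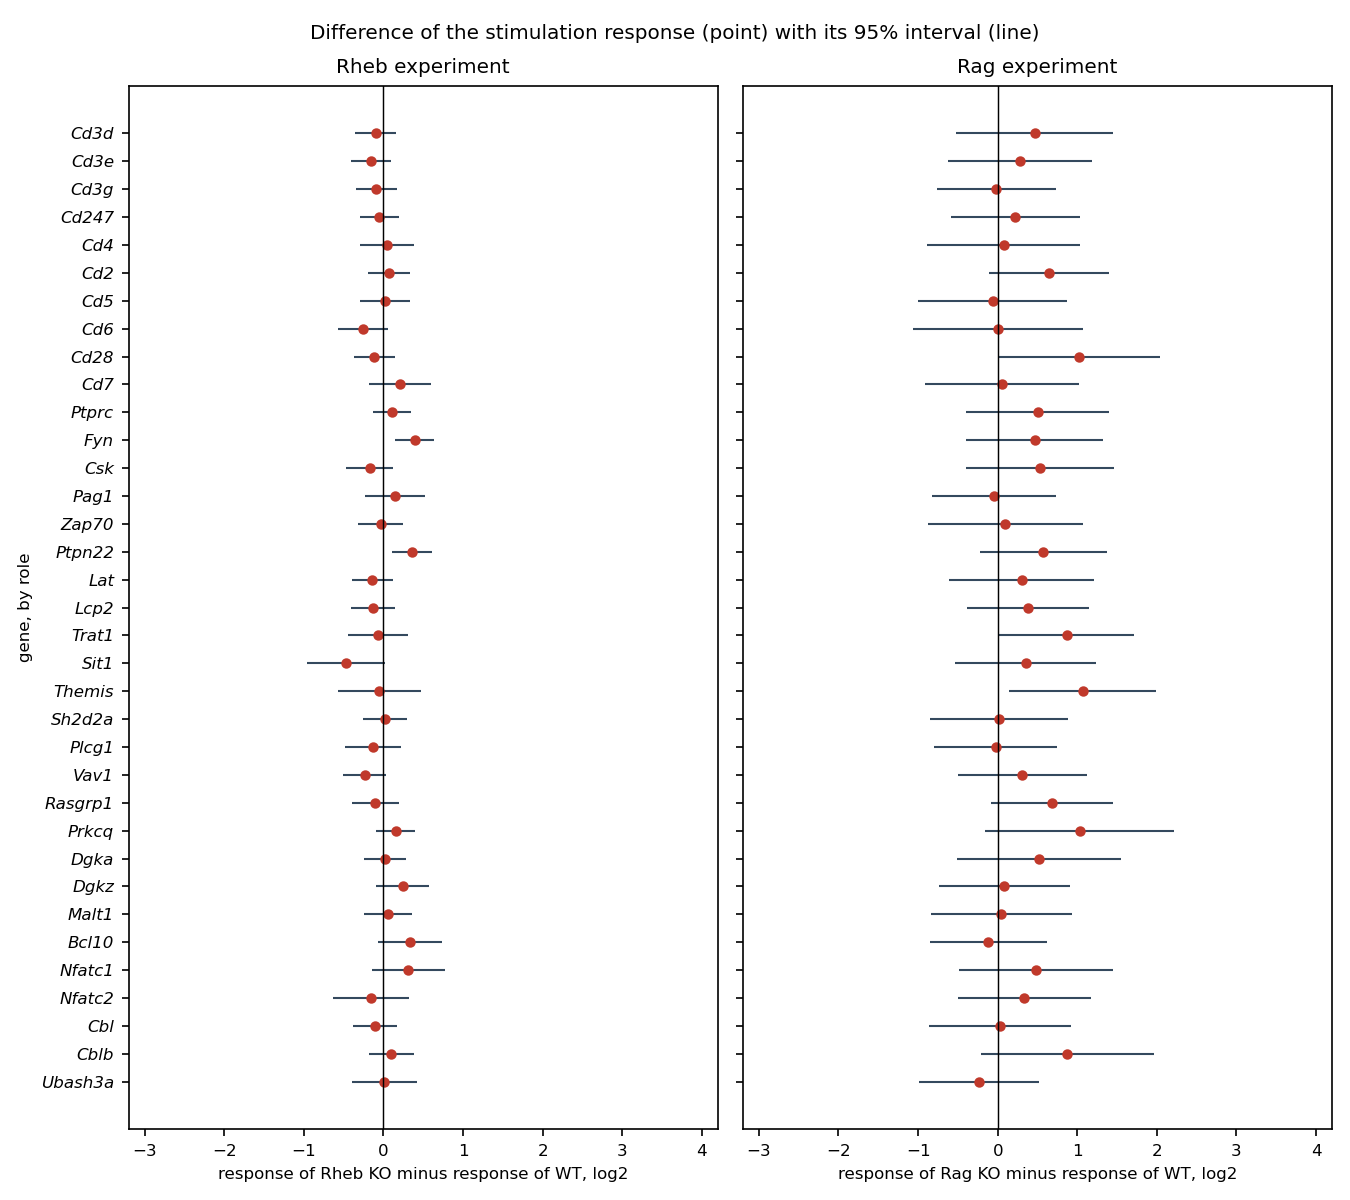
Response of KO cells minus response of WT cells (points, log2) with the 95% interval (lines) for the 35 genes in the Rheb experiment (left) and the Rag experiment (right). Most intervals cover 0 in both, and those of the Rag experiment, with 2 arrays per group, are wider.

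Further genes of the pathway, a written list of 60 of which 49 were measured, held calls in both directions. In stimulated Rheb1/2 KO Tregs 11 of the 49 fell and 5 rose, and in stimulated WT Tregs 10 fell and 4 rose, against the shares of all genes given above for these responses (5.19% lower and 4.55% higher, 4.89% lower and 4.49% higher). The median over the 49 was -0.15 in both, against -0.01 and 0.02 over all genes. Tespa1, a binding partner of the inositol trisphosphate receptor, fell by 1.12 in Rheb1/2 KO cells and 1.05 in WT cells. Nfkbia, the inhibitor of NF-kB, fell by 0.88 and 0.95, the adaptor Skap1 by 0.64 and 0.86, the inhibitory adaptor Lax1 by 0.76 and 0.85, and the GTPase gene Rhoh by 0.85 and 0.75, in Rheb1/2 KO and in WT cells. Icos, the inducible costimulator, rose by 0.82 in Rheb1/2 KO cells and 0.70 in WT cells, and the phosphatase gene Ptpn6 fell by 0.78 in each. In the Rag experiment 0 of the 49 passed in RagAB KO cells, and in WT cells the kinase gene Txk fell by 1.43 and the calcium channel gene Orai1 rose by 1.28 (adjusted p = 0.0492 and 0.0302). In the 4 KO comparisons 0 of the 49 passed by limma, with 8 and 6 at an unadjusted p under 0.05 in stimulated and unstimulated Rheb1/2 KO cells, against 9.25% and 10.2% of all genes, and 4 and 7 in stimulated and unstimulated RagAB KO cells, against 5.07% and 6.66%.

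Of 12 genes known to be induced through the receptor, 6 rose and 2 fell in stimulated Rheb1/2 KO Tregs (4.55% and 5.19% of all genes). In stimulated WT Tregs 5 rose and 2 fell (4.49% and 4.89%). Egr1 and Nr4a1 are in this list and also in the list of genes that cell dissociation induces. Tnfrsf9 rose by 1.45 in Rheb1/2 KO cells and 1.22 in WT cells, Irf4 by 1.25 and 0.88, and Egr2 by 0.94 and 0.90. Cd69, an early activation marker, fell by 0.52 in Rheb1/2 KO cells and 0.94 in WT cells, so this gene was higher in the unstimulated cells. In the Rag experiment 7 of 12 rose in RagAB KO cells and 5 in WT cells, against 1.2% and 0.477% of all genes, and 0 fell; Nr4a3 rose by 2.64 and 2.46 and Irf4 by 2.43 and 2.70, in RagAB KO and in WT cells. Stimulated Rheb1/2 KO Tregs had 3 of the 12 higher than stimulated WT Tregs, against 0.205% of all genes called higher and 0.338% lower. These were Nr4a2 by 0.74, Nr4a3 by 0.58 and Cd69 by 0.45 (adjusted p = 0.0162, 0.0362 and 0.0304).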

How the data were processed

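Gene expression was measured on 20 Clariom S mouse arrays of CD4+CD25+ cells, enriched with CD4 beads, sorted, and labelled after RNA amplification, per the labels. The deposited values are log2 gene-level signals, made by RMA with Affymetrix Expression Console 1.1, per the submitters' processing notes. The sources used here do not say if the experiments were normalized together. Of 28846 probe sets, 19572 carried 1 gene and 5222 were negative controls. The probe set of highest mean stood for each of 55 genes with several, which left 19505 genes; no member had several.

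Each experiment was fitted with its 4 groups in limma 3.58.1 (R 4.3.3), with Benjamini-Hochberg adjustment over all genes, and 10 comparisons were made. The fit was tested on simulated data. No 2 arrays held identical values; the highest correlation between 2 arrays was 0.989. Members and lists were chosen with earlier results of these data known. Every called member is named; where fewer than 3 were called in a comparison, the 3 of largest change are. Other pathway genes are named only if called, up to 6 per comparison by size of change. The background level used for bounds on folds, the 95th percentile of each array's negative controls, was chosen after the data were seen. Correlations are across genes. Promoter windows are RefSeq's. Alternatives were a second quantile normalization, removal of the dimmest 40% of genes, a trended and robust prior, fits of the 2 groups compared or of all 20 arrays, the replicate number as a block, and arrays left out.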

Additional observations from a re-analysis of the deposited data

Results flagged for a closer look

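Among the 35 genes, 5 differences are listed because all arrays of one group moved one way and all of the other the opposite way. The share of all genes with this pattern was not counted, and none of the 5 passed the test of the difference over all genes. Trat1 was higher in stimulated than unstimulated RagAB KO Tregs on all arrays and lower in stimulated than unstimulated WT Tregs, a difference in response of 0.8663 (adjusted p = 0.728). Its RagAB KO arrays were not above background in either state, and the nearest stimulated and unstimulated ones had 8.95 and 8.91. Themis was higher in stimulated RagAB KO than stimulated WT Tregs and lower in unstimulated RagAB KO than unstimulated WT Tregs, a difference of 1.066 (adjusted p = 0.728). Themis was not above background in any group of the Rag experiment. Fyn was higher in stimulated Rheb1/2 KO than stimulated WT Tregs and lower in unstimulated Rheb1/2 KO than unstimulated WT Tregs, a difference of 0.3918 (adjusted p = 0.666). Ptpn22 showed the same pattern with 0.3625 (adjusted p = 0.701), and Ptprc with 0.1058 (adjusted p = 0.958).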

How the results depend on the processing

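Counts of the 35 genes called moved under several alternatives. Removing the dimmest 40% of genes, which leaves fewer genes tested, gave 1 call in unstimulated Rheb1/2 KO against WT Tregs (0 as reported), 2 in stimulated ones (1 as reported) and 4 in the RagAB KO response (2 as reported). A trended and robust prior gave 4 and 3 in the first 2 of these comparisons. Fitting only the 2 groups compared gave 0 in stimulated Rheb1/2 KO against WT, 0 in unstimulated RagAB KO against WT and 5 in the WT response of the Rag experiment. One fit of all 20 arrays gave 0 in stimulated Rheb1/2 KO against WT, 10 in the Rheb1/2 KO response, 7 in the WT response beside it, 9 in the RagAB KO response and 9 in the WT response beside it. A second quantile normalization gave 4 calls in the RagAB KO response and 7 in the WT response beside it. Without both RagAB KO arrays numbered 2 the counts were 2 in unstimulated RagAB KO against WT, 4 in the RagAB KO response, 5 in the WT response and 1 in the difference of responses. Leaving out, as chosen after seeing the data, the 2 Rag arrays of lowest signal gave 0 in unstimulated RagAB KO against WT. Leaving out 1 array at a time gave 0 to 1 in stimulated Rheb1/2 KO against WT, 0 to 2 in unstimulated RagAB KO against WT, 1 to 5 in the RagAB KO response, 1 to 4 in the WT response of the Rag experiment and 0 to 1 in the difference of responses in that experiment; where a group keeps 1 array, it is assumed to vary like the other groups. Where no cause is given, the cause was not tested. No named gene that passed the test as reported changed sign under any of these alternatives, but medians of the 35 genes did. In unstimulated RagAB KO against WT Tregs the median was 0.08 without unstimulated WT array 1 (-0.27 as reported), in the WT response of the Rag experiment 0.18 without the same array (-0.15 as reported), and in the RagAB KO response -0.29 after the second quantile normalization and -0.12 without unstimulated array 1, also when both arrays of lowest signal were left out (0.20 as reported). The median difference of responses in the Rheb experiment (-0.03 as reported) was up to 0.03 without 1 array.

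With the replicate number as a block, 0 genes were called in stimulated Rheb1/2 KO against WT Tregs, and Cd6 had an adjusted p of 0.0504. Deviations of same-numbered arrays had a median correlation of -0.01 in the Rheb experiment (-0.20 to 0.18). Differently numbered arrays had 0.02 there (-0.19 to 0.26), so same-numbered arrays were no more alike. In the Rag experiment the same-numbered median was 0.11 (-0.43 to 0.23). With 2 arrays per group, centring on the group mean makes differently numbered pairs the mirror image of these. The Rag values therefore cannot show if the numbers pair the arrays. Between 23 and 30 of the 35 genes were above the negative controls' 95th percentile on an array, which limits the precision for the dimmer ones.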
